A study of Mus musculus with 21 samples.

Results

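The cytosolic ribosome of mouse cells is built from a large and a small subunit, and the genes of their proteins were followed here in embryoid bodies, the aggregates in which embryonic stem cells (ESCs) differentiate. Members were taken by gene symbol (Rpl, Rplp or Rps followed by a number, and Rpsa, without the Rps6k kinases and without pseudogenes) with a mean of at least 1 FPKM, the fragments assigned to a gene per kilobase of transcript at equal depth. The symbols of 89 genes matched, and 85 of the 24458 genes in the table passed the minimum: 50 with large subunit symbols and 35 with small subunit symbols. Of these, 76 were the canonical genes (45 large, 31 small) and 7 were paralogues that lie outside the canonical set. A further 1, Rps27rt, was classed as a retrogene by its symbol alone. The symbol pattern also took Rps19bp1, which is not a ribosomal protein but a protein that binds one. The rule itself reads symbol and mean level over all 12 libraries.

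Wild type cells were compared with knockouts of Rinf, the gene Cxxc5, whose protein carries a CXXC zinc finger that binds unmethylated CpG. All lines had the V6.5 background and the strain given as mixed 129/C57BL/6. Embryoid bodies were grown by hanging drop and sampled at days 0, 3 and 6. Each genotype had 2 independent ESC lines, giving 2 libraries in each of the 6 groups and 12 in all; the labels do not say that a replicate number marks the same line on every day. The p-values measure the spread between these samples, and which part of Cxxc5 was removed is not given here. All libraries, day 6 included, carry embryonic stem cells as their labelled cell type.

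Each ribosome carries 1 copy of nearly every core protein, with the P stalk proteins as the known exception, and the messenger RNAs of these proteins are among the most abundant in growing cells. They begin with a run of pyrimidines, the terminal oligopyrimidine tract, through which mTOR and LARP1 control their translation. Several genes have a second copy elsewhere in the genome. Rpl10l, Rpl39l, Rps4l and Rpl36al correspond to the X-linked Rpl10, Rpl39, Rps4x and Rpl36a, and Rpl10l and Rpl39l are known from the testis, where the X chromosome is silenced in male meiosis. Rpl22l1 is the paralogue of Rpl22, Rps27l that of Rps27 and a known p53 target, and Rpl7l1 is a relative of Rpl7 with a role in ribosome assembly.

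The start sites of 4 such pairs are shown first, since the paralogues carry the larger changes described further on. RefSeq (GRCm38.p6, the mm10 build) held a promoter entry for 56 of the 76 canonical genes and 6 of the 7 paralogues, all but Rps4l. Each line gives 90 bases on the coding strand, 70 before the annotated start and 20 from it. Capitals mark runs of at least 8 pyrimidines within 25 bases of the start on either side, and the ETS-type core CCGGAAG on either strand. Rpl39 lies at chrX:37085203-37085292 (minus strand), Rpl39l at chr16:10170158-10170247 (plus), Rpl10 at chrX:74270746-74270835 (plus), Rpl10l at chr12:66284382-66284471 (minus), Rpl22 at chr4:152324366-152324455 (plus), Rpl22l1 at chr3:28805438-28805527 (plus), Rps27 at chr3:90213629-90213718 (minus) and Rps27l at chr9:66946016-66946105 (plus).
Rpl39: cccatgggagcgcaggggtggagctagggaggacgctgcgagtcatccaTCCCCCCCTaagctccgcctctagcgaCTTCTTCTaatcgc
Rpl39l: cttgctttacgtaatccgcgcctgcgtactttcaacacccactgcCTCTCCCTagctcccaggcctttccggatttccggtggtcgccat
Rpl10: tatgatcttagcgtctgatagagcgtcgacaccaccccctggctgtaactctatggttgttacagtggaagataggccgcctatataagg
Rpl10l: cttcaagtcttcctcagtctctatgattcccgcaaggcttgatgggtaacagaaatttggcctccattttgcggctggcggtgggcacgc
Rpl22: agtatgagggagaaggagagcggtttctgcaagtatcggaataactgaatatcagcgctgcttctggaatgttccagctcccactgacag
Rpl22l1: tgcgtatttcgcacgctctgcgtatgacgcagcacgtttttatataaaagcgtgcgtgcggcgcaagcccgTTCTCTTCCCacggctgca
Rps27: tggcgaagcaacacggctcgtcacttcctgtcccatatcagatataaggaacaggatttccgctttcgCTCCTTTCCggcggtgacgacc
Rps27l: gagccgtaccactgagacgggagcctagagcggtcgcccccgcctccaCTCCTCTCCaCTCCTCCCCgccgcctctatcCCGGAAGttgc
Rpl22l1 carries a pyrimidine run that opens 1 base after the annotated start, whereas the window of Rpl22 holds no run of that length. The run of Rps27 spans its start, those of Rps27l and Rpl39l lie before theirs, Rpl39 has one on either side, and neither window of the Rpl10 pair holds one. Rpl22 and Rps27l each have 2 annotated starts, of which 1 is shown.

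Over all canonical genes with an entry, 31 of 66 promoters (47.0%) had such a pyrimidine run, against 18.9% of the promoters of all tested genes and 3 of 7 promoters of paralogues. Within 250 bases before to 50 after the start, CCGGAAG on either strand was found in 36.4% of canonical promoters and 17.7% of tested ones. AAGATGGC, the core of the YY1 motif, was found on either strand in 10.6% and 4.50%. The GC box GGGCGG was about as common in both (62.1% and 64.1%), as was the E-box CACGTG (12.1% and 10.2%). The median promoter held 21.5 CpG among canonical members, 24 among paralogues and 21 among tested genes. These matches describe letters in annotated windows.

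Depth was estimated at 14.5 M (wild type day 3 replicate 2) to 32.1 M reads (knockout day 3 replicate 2) per library. Cxxc5 ran from 25.1 to 52.3 FPKM in the wild type libraries and from 5.05 to 11.9 in the knockout libraries, with no overlap. All 8 pluripotency markers were above 0 in every library, and their summed FPKM ran from 2952 to 3163 at day 0, from 1449 to 1843 at day 3 and from 197 to 849 at day 6. The 9 fibroblast markers summed to 6.91 to 31.9 FPKM. One library stood apart for the genes described here: wild type day 0 replicate 1 was the lowest of 12 for 36 of the 76 canonical members. Its FPKM was a median of 0.809 of that in replicate 2, lower in 69 of 76, with 0.769 for transcripts under 853 bases and 0.873 for longer ones. In the other groups this median ratio lay between 0.974 and 1.05.

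The canonical genes were expressed at a high and rather even level. Their mean FPKM had a median of 1261 and quartiles of 878 and 1720. Rps26 was the highest member with a mean of 3668 FPKM (3240 to 3851 over 12 libraries), followed by Rpl41 with 3297 (2782 to 3813) and Rps12 with 3111. Rpl41 encodes the smallest ribosomal protein. The 7 paralogues had a median of 101 FPKM, and Rpl39l was the lowest member of all with 4.02. Rps19bp1 stood at 29.5.

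Exceptions among the canonical genes were Rps27 (mean 7.28 FPKM), Rpl30 (8.28) and Rpl34 (14), listed far below the other canonical genes that passed the minimum, of which Rps15a was the lowest at 86.2. Just under the minimum stood Rpl37rt (0.805), Rpl32l (0.621), Rpl3l (0.60, a gene of skeletal muscle and heart) and the canonical Rpl26 (0.566), listed at 0 in 8 of 12 libraries; just inside was Rpl39l. The retrogene Rps27rt, nearly the same as Rps27 in sequence, was listed at 2135 FPKM. A read from Rps27 and one from Rps27rt may be assigned to either, so the levels of both are uncertain.

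**Figure D1:**
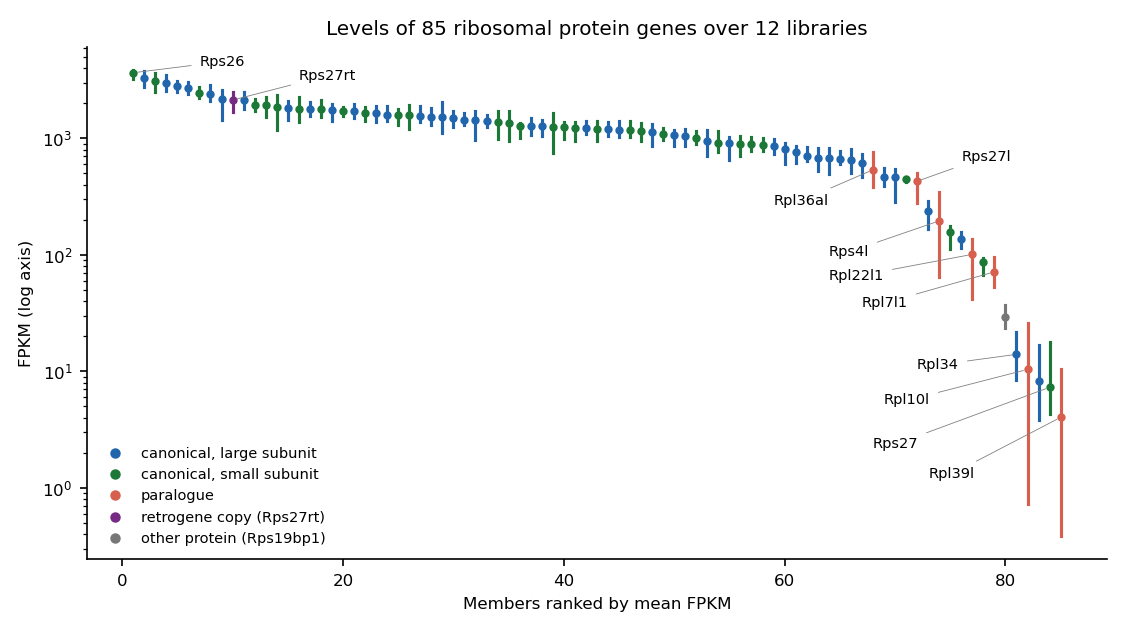
Mean FPKM of the 85 members on a log axis, ranked from highest to lowest, with a vertical line from the lowest to the highest library and colours for canonical genes, paralogues, the retrogene and Rps19bp1. Most canonical genes lie near the median of 1261 FPKM, Rps27, Rpl30 and Rpl34 lie far below them, and the lines are longest for paralogues.

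How far reads can be told apart was measured for each member as the share of the 75-base windows of its transcript that occur elsewhere in the genome, 75 bases being the read length. The median share was 46.7% over the 85 members, at least 50% in 37 of them and 0 in 4. It was 47.1% for canonical members and 12.2% for paralogues. Rps27 was almost wholly shared (99.6%) and Rps27rt had 87.7%, whereas Rpl30 had 39.3% and Rpl34 33.1%, which is less than the median member. The canonical Rpl26, under the minimum level, had 54.3%. Whether the low listed levels of Rpl26, Rpl30 and Rpl34 reflect their expression was not tested. Among paralogues the share was 62.8% for Rpl36al, 54.0% for Rpl22l1, 14.2% for Rpl10l, 12.2% for Rps27l, 7.1% for Rps4l, 6.32% for Rpl7l1 and 0 for Rpl39l. How the authors' counting treated reads with several matches is not stated in the notes used here. Members had short transcripts, with a median of 838 bases against 2874 for all tested genes.

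**Figure D2:**
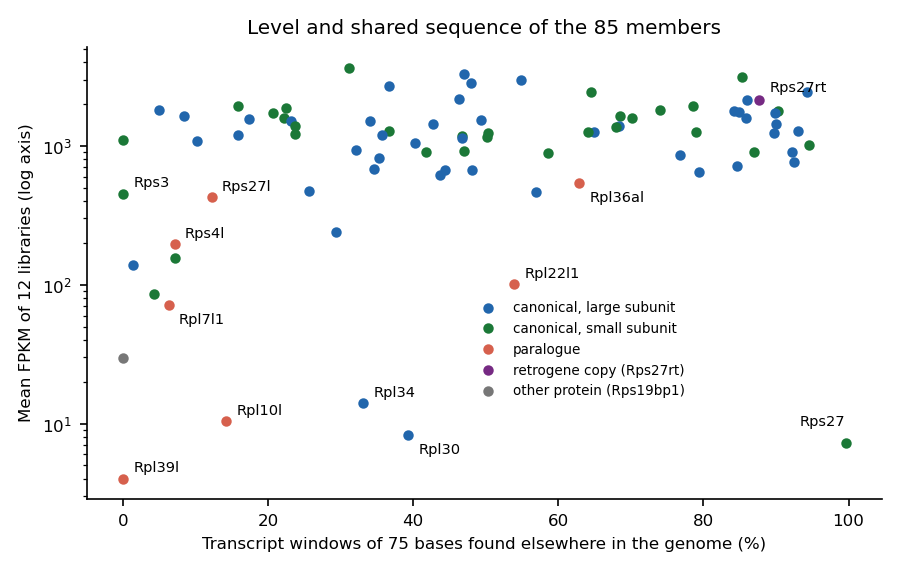
Mean FPKM of each member (log axis) against the percentage of its 75-base transcript windows found elsewhere in the genome. Rps27 stands at 99.6% with 7.28 FPKM and Rps27rt at 87.7% with 2135 FPKM, while the other low canonical genes, Rpl30 and Rpl34, share under 40% of their windows.

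Taken as a whole, the 85 genes made up a nearly constant share of the transcriptome. At day 0 they held 17.4% and 19.4% of summed FPKM in wild type and 18.6% and 18.8% in knockout. At day 3 the shares were 20.2% and 19.7% in wild type and 19.1% and 19.7% in knockout, and at day 6 they were 18.8% and 18.8% against 19.7% and 19.6%. The lowest value, 17.4%, came from wild type day 0 replicate 1, and the genotypes overlapped at days 0 and 3 but not at day 6. The balance of the subunits moved little: the ratio of summed large to summed small subunit FPKM was 1.33 and 1.31 in wild type and 1.29 and 1.29 in knockout at day 0, and 1.26 in all 4 libraries of day 3. At day 6 it was 1.28 and 1.31 in wild type and 1.35 and 1.34 in knockout. For any of these, an exact permutation test (two-sided, 2 against 2) cannot go below p = 0.333. In bulk RNA, fewer cells of a type and less RNA per cell cannot be told apart.

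**Figure D3:**
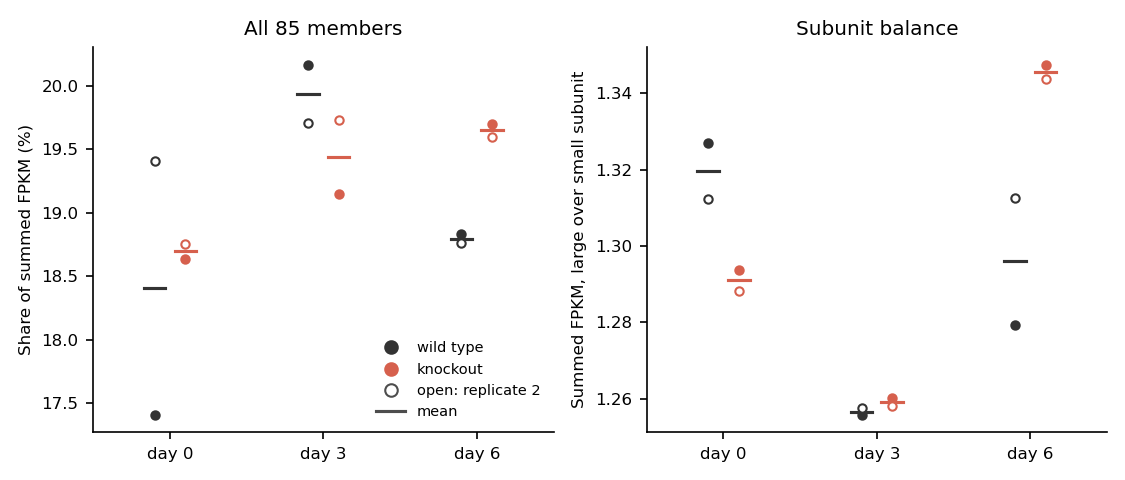
Left, percentage of summed FPKM held by the 85 members in each library. Right, ratio of summed large to summed small subunit FPKM; points are libraries (open for replicate 2) and lines are means of 2 libraries. The share stays between 17.4% and 20.2%, and the ratio is 1.26 in every day 3 library.

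Gene by gene the canonical members were also steady. The ratio of the highest to the lowest of 12 libraries had a median of 1.39 among them, against 2.04 among all 12472 genes tested, 1.71 among the 777 genes with a mean of at least 100 FPKM and 1.69 among 78 mitochondrial ribosomal protein genes. It was over 2 for 5 of 76 canonical genes (Rpl30, Rps27, Rpl34, Rps28 and Rps21) and for 51.8% of all genes tested. Rps3, which lines the entry of the mRNA channel, varied least, from 424 to 470 FPKM. Rps28 ran from 756 to 1663 FPKM, and its lowest value was again that of wild type day 0 replicate 1. The paralogues varied more, with a median ratio of 3.30 and up to 35.4 for Rpl10l.

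**Figure D4:**
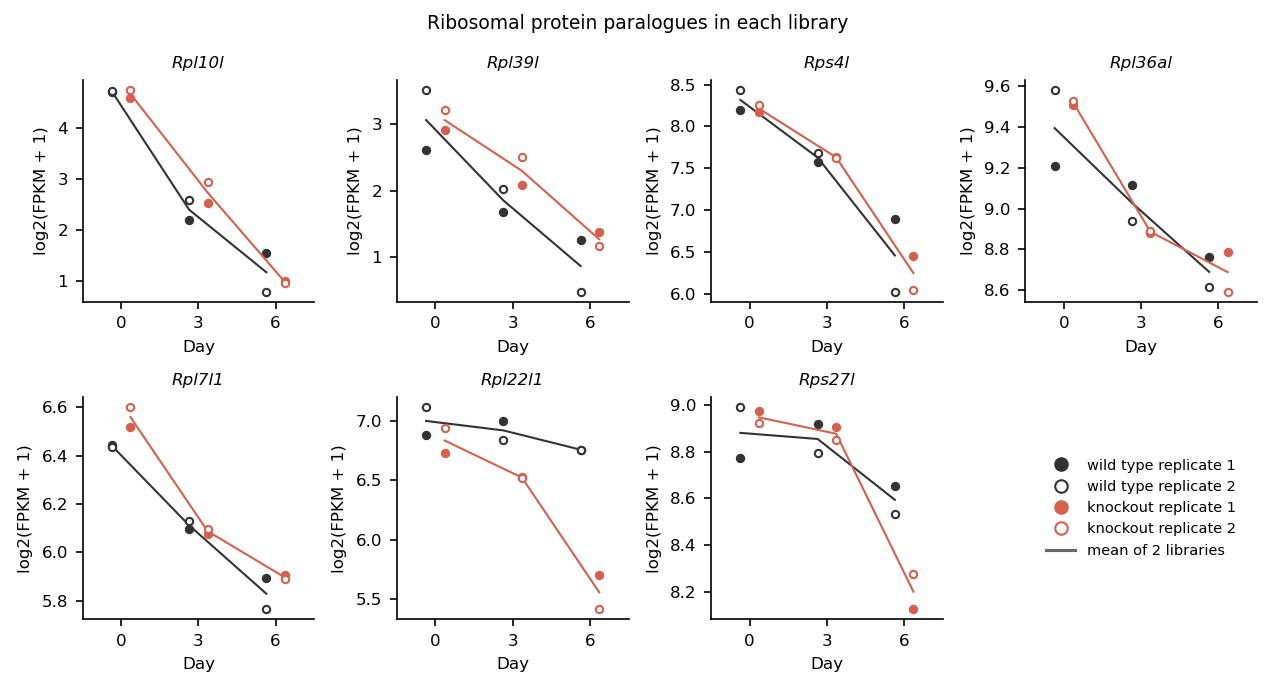
Level of each paralogue as log2(FPKM + 1) by day, with points for single libraries (filled for replicate 1, open for replicate 2) and lines through the means of 2. Rpl10l, Rpl39l, Rps4l, Rpl36al and Rpl7l1 are lower at day 6 than at day 0 in both genotypes. Rpl22l1 and Rps27l separate by genotype at day 6. At day 3 the genotypes also do not overlap for Rpl22l1, Rpl36al and Rpl39l, none of which was called on that day.

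Rpl10l showed the largest fall of any member. Its FPKM was 25.2 and 25.5 in wild type and 23.2 and 25.9 in knockout at day 0, then 3.62 and 5.03 against 4.75 and 6.71 at day 3, and 1.94 and 0.729 against 1.00 and 0.946 at day 6. No library of day 3 reached a level of day 0, and none of day 6 reached one of day 3. Between days 0 and 3 it fell by 2.32 on the log2(FPKM + 1) scale in wild type (SE 0.24, limma adjusted p = 7.76e-05) and by 1.94 in knockout (adjusted p = 2.57e-04). Between days 3 and 6 it fell by 1.75 in knockout (limma adjusted p = 4.80e-04) and by 1.23 in wild type (adjusted p = 0.00690, and 0.0544 without wild type day 3 replicate 2). Its X-linked partner Rpl10 stayed between 1410 and 1958 FPKM, so that Rpl10l went from 1.28% to 1.45% of Rpl10 at day 0 to 0.0465% to 0.118% at day 6.

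Rpl39l was the faintest member and followed a like course. Its FPKM was 5.12 and 10.5 in wild type and 6.55 and 8.29 in knockout at day 0, 2.19 and 3.08 against 3.26 and 4.68 at day 3, and 1.38 and 0.386 against 1.58 and 1.23 at day 6. The days did not overlap within a genotype. In wild type it fell by 1.21 between days 0 and 3 (SE 0.34, limma adjusted p = 0.0138), which was no longer called without wild type day 0 replicate 2 (-0.76, adjusted p = 0.101) or day 3 replicate 1 (adjusted p = 0.0888). The step in knockout was -0.77 and was not called (limma adjusted p = 0.0850). Between days 3 and 6 the values were -0.99 in wild type (limma adjusted p = 0.0482) and -1.03 in knockout (0.0265), and these calls ended in 8 of 10 and 4 of 10 alternatives; without wild type day 6 replicate 2 the former was -0.60, and with GC and length trends removed the latter was -0.65 (adjusted p = 0.112). The replicate block ended the former (adjusted p = 0.0824). The lowest value, in wild type day 6 replicate 2, rests on an estimated 8.36 reads.

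Rps4l, the autosomal relative of Rps4x, was much more abundant. Its FPKM was 293 and 345 in wild type and 286 and 306 in knockout at day 0, 189 and 205 against 197 and 196 at day 3, and 118 and 64.0 against 86.1 and 65.0 at day 6. Between days 3 and 6 it fell by 1.38 in knockout (limma adjusted p = 0.00154) and by 1.17 in wild type (0.00873), where the call ended without wild type day 3 replicate 2 (-1.11, adjusted p = 0.0570) and the size was -0.74 without day 6 replicate 2. The step from day 0 to day 3 was -0.69 in wild type (limma adjusted p = 0.0393, lost in 8 of 11 alternatives, the replicate block among them at 0.0644) and -0.59 in knockout, not called. Relative to Rps4x, Rps4l stood at 21% to 27.1% at day 0 and at 5.25% to 9.72% at day 6.

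Rpl36al, whose protein differs little from that of Rpl36a, had 590 and 764 FPKM in wild type and 727 and 737 in knockout at day 0, 554 and 490 against 470 and 474 at day 3, and 434 and 391 against 440 and 385 at day 6. It fell by 0.63 between days 0 and 3 in knockout (limma adjusted p = 0.00277). In wild type the step was -0.36 (adjusted p = 0.0329) and was not called without day 0 replicate 2 (-0.18, adjusted p = 0.198) or day 3 replicate 2 (adjusted p = 0.179), with the replicate block (adjusted p = 0.0664) or with GC and length trends removed (-0.20, adjusted p = 0.0515). Without day 0 replicate 1 it was -0.55. The ratio to Rpl36a was 73.8% to 89.5% at day 0 and 43.2% to 50.6% at day 6, with no overlap. Rpl7l1 ran from 85.7 to 96.0 FPKM over the 4 libraries of day 0, from 66.5 to 68.9 at day 3 and from 53.4 to 58.9 at day 6. Between days 0 and 3 it fell by 0.33 in wild type (limma adjusted p = 0.00112) and by 0.47 in knockout (adjusted p = 1.98e-04; -0.31 with equal sums).

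Over all 85 members, 2 rose and 8 fell from day 0 to day 3 in wild type, 11.8% together, where 55.7% of all tested genes were called (25.5% risen, 30.2% fallen). In knockout 0 rose and 21 fell, 24.7% against 52.6% of all genes (24.6% risen, 28% fallen). From day 3 to day 6, 0 rose and 28 fell in wild type, 32.9% against 35.9% (17.4% risen, 18.4% fallen), and 6 rose and 16 fell in knockout, 25.9% against 59.1% (29.2% risen, 29.9% fallen). The members' share lay below that of all genes in each step and nearest to it in wild type after day 3; these shares were not tested against each other. With the replicate number as a block, the wild type steps held 6 and 15 called members in place of 10 and 28. Among genes of at least 100 FPKM the median log2 changes were -0.15 and -0.19 in wild type and -0.21 and -0.17 in knockout.

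For the canonical genes the steps between days were small, and their direction depended on the scaling and on single libraries. From day 0 to day 3 in wild type, 2 of 76 rose and 2 fell, with a median log2 change of 0.01; with every library set to the same summed FPKM 15 rose and 0 fell (median 0.10). Without wild type day 0 replicate 1 the counts were 1 and 13, and without replicate 2 they were 29 and 2. In knockout the same step gave 0 risen and 17 fallen (median -0.11) as deposited, and 13 risen and 0 fallen with equal sums (median 0.05). In that step equal sums also took the median of all tested genes from -0.02 to 0.11, above the canonical median. In wild type they took it from -0.02 to 0.05 for days 0 to 3 and from -0.01 to 0.07 for days 3 to 6. The shares of all genes called with equal sums or with a library left out are not given beside these counts. These counts alone therefore do not show whether the members moved apart from other genes. From day 3 to day 6 in wild type, 0 rose and 24 fell (median -0.18), against 1 and 11 with equal sums; in knockout 6 rose and 10 fell (median -0.02), against 13 and 12. Among the 7 paralogues 0 rose in any of these steps under either scaling. In wild type 5 fell from day 0 to day 3 and 4 from day 3 to day 6 (4 and 2 with equal sums), and in knockout 4 and then 6 fell (3 and 5 with equal sums).

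Single canonical genes stood out in the steps. Rps21, a small subunit protein, had 2362 and 2033 FPKM at day 3 in wild type and 1398 and 1171 at day 6, a fall by 0.78 (limma adjusted p = 0.00553). Rps27a, which is made as a fusion with ubiquitin, went from 1659 and 1560 to 1200 and 1151 in wild type, a fall by 0.45 (limma adjusted p = 0.00299), and it fell by 0.44 in knockout. Both wild type falls were called in every alternative run. In knockout Rps16, a protein of the small subunit head, went from 841 and 876 FPKM at day 3 to 1164 and 1140 at day 6, a rise of 0.42 (limma adjusted p = 0.00744). Rpsa, on the side where mRNA leaves the subunit, went from 1179 and 1179 to 1423 and 1386, a rise of 0.25 (limma adjusted p = 0.00549). The rise of Rps27 in knockout (0.96, limma adjusted p = 0.0325) came from 1 library of 17.96 FPKM and was 0.40 without knockout day 6 replicate 1 (adjusted p = 0.202) and 1.52 without replicate 2. Rps19, mutated in Diamond-Blackfan anaemia, rose from 707 and 932 to 1044 and 1025 in wild type between days 0 and 3 (0.35, limma adjusted p = 0.0229), and the call ended without either day 3 library (adjusted p = 0.0951 and 0.0745). The rise was 0.15 without wild type day 0 replicate 1 and 0.55 without day 0 replicate 2.

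At day 0 no member passed the test between knockout and wild type: 0 of 85 were called by limma, where 0.369% of all genes were, and 1 had an unadjusted p under 0.05. The median canonical difference was 0.08 log2, or -0.07 without wild type day 0 replicate 1 and 0.23 without replicate 2. At day 3 again 0 of 85 were called, against 1.19% of all genes, and 11 had an unadjusted p under 0.05. The shares of all genes under that unadjusted threshold are not given here, so these counts describe no trait of the members. The median canonical difference was -0.07. Groups did not overlap for 10 members at day 0 and 53 at day 3 (49.8% and 60.3% of all genes). Within 1.25-fold of wild type were 82 of 85 members at day 0 and 79 at day 3. The share of all genes within that range is not given here. Among paralogues at day 3, Rpl22l1 had 127 and 114 FPKM in wild type and 91.5 and 90.6 in knockout (-0.40, limma adjusted p = 0.154), and Rpl39l had a difference of 0.45 (adjusted p = 0.572). Rpl34 (-0.44, limma adjusted p = 0.523) and Rps21 (-0.41, adjusted p = 0.220) were the canonical genes that differed most, also short of the threshold.

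At day 6, 22 of 85 members (25.9%) differed between genotypes, where 34.1% of all genes were called. Of these, 16 stood higher and 6 lower in knockout (17.9% and 16.2% of all genes). Within 1.25-fold stayed 71 of 85 members, with no share of all genes given beside them. Among canonical genes 15 were higher and 4 lower, with a median of 0.07 (15 and 9 with equal sums, median 0.03); among paralogues 0 were higher and 2 lower. Groups did not overlap for 59 members, against 63.6% of all genes. When only the 4 day 6 libraries were fitted, 0 of 85 members and 20 of all genes were called, so every call below rests on the spread shared over 12 libraries. The calls of Rpl22l1, Rps16, Rpl8 and Rpsa were lost in no other alternative run.

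Rpl22l1 had the largest difference. Its FPKM was 117 and 138 in wild type and 105 and 122 in knockout at day 0, and 107 and 107 in wild type against 51.0 and 41.7 in knockout at day 6. The knockout libraries of day 6 lay under every other library, with means of 46.4 ± 6.53 against 107 ± 0.0346 (SD, n = 2). The difference was -1.20 (SE 0.12, limma adjusted p = 3.66e-04), and -0.75 once trends with GC content and transcript length were removed (adjusted p = 0.00290). Rpl22, the canonical gene, had 129 and 139 FPKM in wild type and 158 and 140 in knockout at day 6 (0.15, limma adjusted p = 0.297). Rpl22l1 therefore stood at 83% and 77.4% of Rpl22 in wild type and at 32.3% and 29.9% in knockout, after 103% and 97.4% against 77.6% and 83.8% at day 0. Its transcript, whose start is printed above, shares 54.0% of its 75-base windows with other places in the genome.

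Rps27l, the p53-inducible copy, was the other lower paralogue. Its FPKM was 402 and 370 in wild type and 279 and 309 in knockout at day 6, after 436 and 507 against 501 and 483 at day 0. The groups did not overlap at day 6, and the difference was -0.39 (SE 0.09, limma adjusted p = 0.0119). The call ended without wild type day 6 replicate 1 (-0.33, adjusted p = 0.0678), without knockout day 6 replicate 1 (-0.32, adjusted p = 0.0530) and with GC and length trends removed (-0.18, adjusted p = 0.109). The fall between days 3 and 6 in knockout was called in every alternative for both genes: by 0.97 for Rpl22l1 (limma adjusted p = 2.80e-04) and by 0.67 for Rps27l (adjusted p = 4.21e-04). These were -0.33 and -0.34 with GC and length trends removed.

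The canonical genes higher in knockout at day 6 included Rps16, with 812 and 797 FPKM in wild type and 1164 and 1140 in knockout (0.52, SE 0.10, limma adjusted p = 0.00717). Rpsa had 1024 and 1035 against 1423 and 1386 (0.45, limma adjusted p = 0.00119). Rpl8, a large subunit protein near the peptidyl transferase centre, had 1510 and 1451 against 2096 and 1967 (0.46, limma adjusted p = 0.00882; 0.25 and 0.0240 with GC and length trends removed). In these 3 genes both knockout libraries lay above both wild type ones. Rps21 had 1398 and 1171 against 1891 and 1991 (0.60, limma adjusted p = 0.0135; 0.0571 without wild type day 6 replicate 2 and 0.0806 without knockout day 6 replicate 2). Rpl27a (0.43) lost its call without any one day 6 library (adjusted p = 0.0577 to 0.0788), and Rpl13 (0.40) without wild type replicate 1 (0.0570) or knockout replicate 2 (0.0822). Rpl13 was also not called with no filter on low values (adjusted p = 0.0559) or with GC and length trends removed (0.22, adjusted p = 0.0541). Those lower in knockout included Rpl31 (-0.32, limma adjusted p = 0.0113), Rps27a (-0.29) and Rpl15 (-0.27). Each of these 3 lost its call without wild type day 6 replicate 1 (limma adjusted p = 0.0521, 0.0660 and 0.0583 in that order), as did Rps27a without knockout replicate 2 (0.0523). Rpl31 also lost it with GC and length trends removed (-0.19, adjusted p = 0.0839).

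By place in the ribosome, the P stalk, which recruits elongation factors, had 3 of 4 genes higher in knockout at day 6 (17.9% of all genes were higher and 16.2% lower), 2 with equal summed FPKM and 1 with GC and length trends removed. These were Rplp2 (0.60, limma adjusted p = 0.0315), Rpl12 (0.26, 0.0111) and Rplp0 (0.23, 0.0499). Rplp2 was at 1247 and 1278 FPKM in wild type and 2042 and 1786 in knockout, and its call ended on leaving out any of the 4 libraries (adjusted p = 0.0694 to 0.125), as did that of Rplp0 (0.0602 to 0.230). Rpl12 was not called without wild type day 6 replicate 1 (0.0617) or knockout replicate 2 (0.0769). Rplp1, the partner of Rplp2, did not pass (0.08, limma adjusted p = 0.800). Around the peptide exit tunnel, 2 of 7 were higher (Rpl4 0.25, Rpl35 0.32) and 1 lower (Rpl31). Rpl4 kept its call without any 1 of the 4 day 6 libraries (limma adjusted p at most 0.0401), and Rpl35 kept it in none of these fits (0.0919 to 0.132). On the mRNA exit side 1 of 6 was higher, Rpsa, and on the entry and decoding side 0 of 4 were called.

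Of the 5S ribonucleoprotein, through which free ribosomal proteins reach Mdm2 and p53, 0 of 2 genes were called at day 6: Rpl11 stood at 0.25 (limma adjusted p = 0.0629) and Rpl5 at -0.02. Of 4 proteins named in the literature for translation of selected mRNAs, 0 were called, with Rpl38 at -0.01, Rpl10a at 0.08, Rps25 at -0.25 and Rpl22 as given. Of 16 genes mutated in Diamond-Blackfan anaemia, 0 were higher and 2 lower (Rpl15 and Rpl31), or 2 and 2 with equal sums. As deposited, 17.9% of all tested genes were higher and 16.2% lower, so counts of 0 in lists of 2 and 4 genes say little. At days 0 and 3 none of these groups held a called gene.

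**Figure D5:**
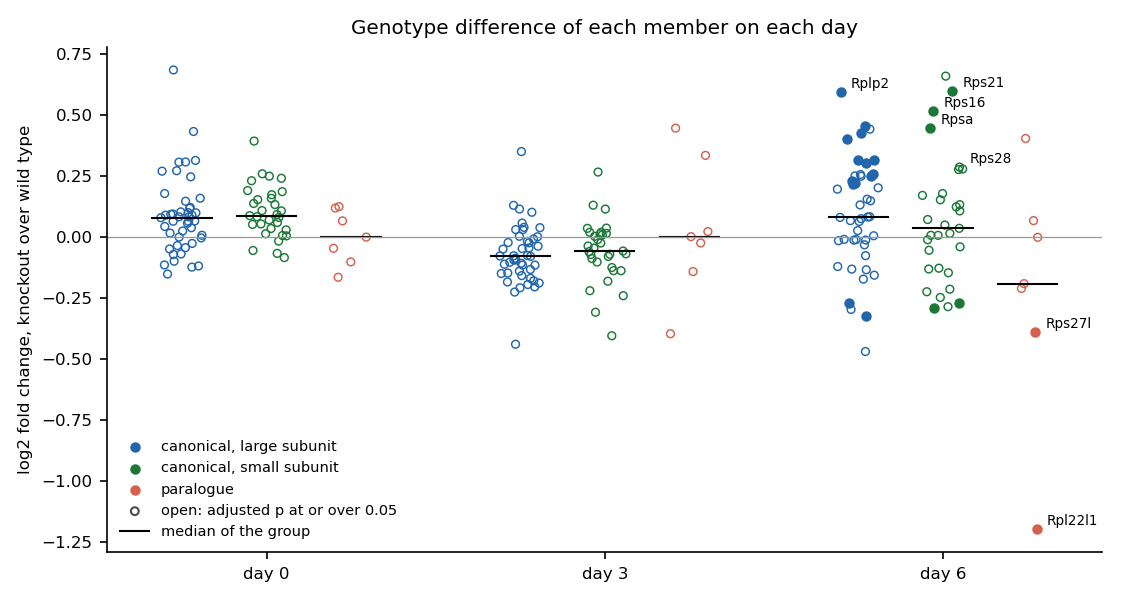
Difference between knockout and wild type, as log2 fold change on the log2(FPKM + 1) scale, for each of the 76 canonical members and 7 paralogues on each day, filled where the limma adjusted p was under 0.05; horizontal lines are medians. No point is filled at days 0 and 3. At day 6 there are 15 filled above 0 and 6 below, with Rpl22l1 lowest at -1.20; with equal summed FPKM these counts are 15 and 11.

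The genotype difference itself changed between days 3 and 6 in 6 of 85 members (5 upward and 1 downward, 7.06%). Among all genes 4.51% changed, 1.3% upward and 3.21% downward. Between days 0 and 3 the genotype difference changed in 0 members, against 0.0401% of all genes. In that earlier test 4 members had an unadjusted p under 0.05, and the share of all genes is not given beside them. Rps21 went from -0.41 at day 3 to 0.60 at day 6, a change of 1.01 (SE 0.20, limma adjusted p = 0.0327). Rpl22l1 changed by -0.80 (SE 0.16, adjusted p = 0.0352), and Rpsa by 0.41 (SE 0.08, adjusted p = 0.0326). Rpl14 (0.37) and Rpl13a (0.35) also passed. These 5 calls are near the threshold and were lost in between 7 and 12 of 14 alternatives. All 5 ended without any 1 of the 4 day 3 libraries and without knockout day 6 replicate 2 (limma adjusted p = 0.0704 to 0.173). With the replicate number as a block 0 of the 6 calls remained (adjusted p = 0.0839 to 0.117), and the change of Rpl22l1 was -0.38 with GC and length trends removed (adjusted p = 0.164).

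The libraries of day 6 differed in cell makeup too, between genotypes and between replicates of a genotype. For the pluripotency and endoderm sums the genotypes overlapped. The 8 pluripotency markers, all above 0, summed to 849 and 354 FPKM in wild type and 471 and 197 in knockout. The 7 markers of primitive streak and mesoderm summed to 88.7 and 338 against 545 and 532, 5 neuroectoderm markers to 80.9 and 50.5 against 40.9 and 18.5, and 5 endoderm markers to 31 and 80.9 against 79.6 and 125. Among the last, Afp was at or near 0 in all of them. Foxa2 went the other way with overlap, at 12.3 and 18.2 FPKM in wild type and 6.41 and 13.3 in knockout. Sox17 overlapped too (6.31 and 16.5 against 10.1 and 21). Gata6 (6.45 and 20.5 against 26.7 and 39) and Gata4 (5.95 and 25.7 against 36.4 and 51.2) were higher without overlap. In the other lists, T (31.5 and 73 against 98 and 50.7) and Nes (36.1 and 26.3 against 26.8 and 14.4) overlapped. Klf4 was higher in knockout (2.83 and 2.72 against 3.33 and 5.24). The 9 fibroblast markers summed to 9.82 and 15.3 against 17.1 and 31.9. Among them Dcn went the other way without overlap and Thy1 with overlap. The part of cell makeup in the differences of Rpl22l1, Rps27l and the canonical genes was not tested.

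Genes that work with the ribosome were counted on the same scale, as background to the members. Among all tested genes, 17.9% were higher and 16.2% lower in knockout at day 6. Of 78 mitochondrial ribosomal protein genes, 18 passed as higher and 1 as lower in knockout at day 6 (median 0.07; 12 and 2 with equal sums), among them Mrps26 (0.53) and Mrpl52 (0.52) higher and Mrpl50 (-0.32) lower. Of 16 translation factors and other mRNAs with a terminal oligopyrimidine tract, 4 were higher and 3 lower (2 and 3 with equal sums), including Eef1g (0.30) and Eef2 (0.24) higher and Hnrnpa1 (-1.35, limma adjusted p = 1.37e-04) and Eif3e (-0.53) lower. For 20 ribosome biogenesis genes the counts were 2 and 3 (0 and 3 with equal sums), and for 9 RNA polymerase I genes 2 and 1 (1 and 2). At days 0 and 3 each list held 0 called genes between genotypes.

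Biogenesis genes that changed with time mostly fell under both scalings. In wild type 1 of 20 rose and 14 fell between days 0 and 3 (median -0.30), and 0 rose and 14 fell between days 3 and 6 (-0.29). In knockout 0 rose and 17 fell (-0.37), then 0 rose and 12 fell (-0.27). With equal sums the fallen were 10, 9, 9 and 12 in the same order, and at most 2 rose. As deposited, the mitochondrial list had 4 risen and 41 fallen of 78, then 2 and 24, in wild type. In knockout it had 3 and 48, then 12 and 19. Its counts with equal sums are not given here. Among all tested genes 25.5% rose and 30.2% fell, then 17.4% and 18.4%, in wild type. In knockout these shares were 24.6% and 28%, then 29.2% and 29.9%.

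Of 13 regulators of ribosome production, the day 6 knockout had 3 at a higher and 4 at a lower level (2 and 3 with equal sums). As deposited, 17.9% and 16.2% of all tested genes were higher and lower. Myc, a transcription factor known for driving ribosome synthesis, had 32.4 and 27.9 FPKM in wild type and 24.8 and 26.5 in knockout at day 0, and 16.5 and 38 against 71.4 and 79.4 at day 6. At day 6 both knockout libraries lay above both wild type ones, which differed from each other (1.54, limma adjusted p = 0.00561). Mycn had 109 and 113 against 131 and 129 at day 0, and 54.0 and 41.3 against 51.8 and 50.2 at day 6, and it was not called between genotypes. Eif4ebp1, a translation repressor under mTOR, was higher (0.65), and Rps6kb1 (-0.44) and Yy1 (-0.36) were lower.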

How the data were processed

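RNA-seq of 12 embryoid body libraries was used. The FPKM values were deposited by the authors in 1 table; per the labels and the submitters' processing notes, Trim Galore 0.4.1 trimmed the reads and TopHat2 2.0.13 mapped them to mm10; Cufflinks 2.2.1, HTSeq 0.6.1 and Cuffdiff are named with no role. For strand, annotation and reads with several matches, nothing is given in the sources used here. All 92 ERCC spike-in rows were 0. Another table holds 6 ESC libraries (3 per genotype) where the labels describe 2 samples per genotype; it could not be mapped, so the planned ESC comparison was not analysed here, nor was ChIP-seq.

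Tests used limma 3.58.1 (R 4.3.3) with a variance trend on log2(FPKM + 1), two-sided, 1 mean per genotype and day, 6 residual degrees of freedom and Benjamini-Hochberg adjustment over 12472 genes with a mean of at least 1 FPKM; an adjusted p under 0.05 is a call. The log2(FPKM + 1) scale understates changes of low genes. The script was tested on simulated data. Depth comes from the steps of low FPKM values. Named were called members with the largest changes (up to 10 per genotype comparison, 5 risen and 5 fallen per step, 5 per interaction), the 3 highest and 3 lowest, paralogue pairs, the role lists, and the 2 most changed called genes per direction of each other list, with Myc and Mycn; Rps3, Rps28, Rpl7l1 and a few other members were added after their values were seen. Members and lists were chosen with earlier results of these data known. Alternatives were the pseudocount, the filter, equal summed FPKM, no variance trend, a replicate block, single days, and leaving out each library; removing day 6, and removing GC and length trends, were added after seeing the data. Some genes are not reported here by name.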

Additional observations from a re-analysis of the deposited data

Results flagged for a closer look

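In 6 members the knockout difference at day 6 differed from that at day 3 by limma's interaction test. The change in the log2 difference was 1.01 for Rps21, -0.80 for Rpl22l1, 0.41 for Rpsa, 0.37 for Rpl14, 0.35 for Rpl13a and 0.32 for Rpl6 (limma adjusted p = 0.0327, 0.0352, 0.0326, 0.0444, 0.0408 and 0.0490). Rpl6, sixth by size, is named after its values were seen; its call was lost in all 14 alternatives. For Rps21 the level at day 3 was 2362 and 2033 FPKM in wild type and 1663 and 1646 in knockout, and at day 6 it was 1398 and 1171 against 1891 and 1991, so the order of the genotypes turned. With the replicate number as a block 0 of these 6 passed.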

How the results depend on the processing

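Counts below are members called of 85. For most of these fits, the steps between days included, the share of all genes called is not given beside them. From the counts given here alone, a change particular to the members cannot be told from one of all genes. At day 3 between genotypes (0 in the reported fit) there was 1 with equal summed FPKM and 2 with GC and length trends removed. At day 6 (22) there were 11 with no filter on low values and 0 with the 4 libraries of that day alone. Wild type day 3 against day 0 (10) gave 5 with no filter, 20 with equal sums and 33 with GC and length trends removed; wild type day 6 against day 3 (28) gave 9 with no filter and 14 with equal sums. Knockout day 3 against day 0 (21) gave 5 with no filter and 12 with the trends removed. The interaction of days 3 and 6 (6) gave 1 with no filter, 3 with no variance trend and 1 with the trends removed.

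Leaving out 1 library gave 0 to 0 members at day 0, 0 to 0 at day 3 and 8 to 16 at day 6 (8 without wild type day 6 replicate 1, 13 and 11 without knockout replicates 1 and 2). It gave 5 to 35 for wild type day 3 against day 0 (19 without day 0 replicate 1, 35 without day 0 replicate 2, 5 without either day 3 library), 10 to 18 for wild type day 6 against day 3, 4 to 9 for knockout day 3 against day 0, 13 to 16 for knockout day 6 against day 3, and 0 to 1 and 0 to 6 for the interactions of days 0 and 3 and of days 3 and 6. With 1 library left in a group, that library is assumed to vary like the other groups.

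Replicate numbers were shared across groups, but differences between replicates correlated across genes at only -0.081 to 0.076 within a genotype and at 0.027, 0.083 and 0.243 within a day, so the numbers were not taken as pairs. Over the 85 members alone the correlations ran from -0.715 to 0.747 within a genotype and from -0.399 to 0.131 within a day. With a replicate block the counts were 6 for wild type day 3 against day 0, 15 for wild type day 6 against day 3 and 0 for the interaction of days 3 and 6, 21 at day 6, 15 and 19 for the knockout steps, and 0 at day 0, at day 3 and for the interaction of days 0 and 3.

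Over all genes, day 0 gave 46 calls (8 with that day alone, 14 with equal sums, 111 with a pseudocount of 0.1, 1 with the block, 360 without day 6), day 3 gave 149 (5 alone, 545 without day 6), day 6 gave 4249 (20 alone, 2138 with trends removed), and the last interaction gave 562 (335, 77 and 184 with equal sums, trends removed and the block). Equal sums moved the median of all genes by up to 0.13 log2. Of 507 alternative values of single genes, 341 kept their side of the threshold, 166 lost their call and 0 changed direction.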
